A study of Mus musculus with 10 samples.

Results

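Hdc, Slc18a1, Slc18a2, Tph1 and Ddc are the genes that make histamine and serotonin and load them into secretory vesicles. These 5 members were chosen by their symbols from the 55276 rows of the deposited table, all 5 were found, and all 5 were above the lowest listed level in at least 2 libraries and entered the test. RNA was sequenced from stomach corpus epithelium, EpCAM-positive cells sorted from C57BL/6 mice aged 6 to 8 weeks. All mice carried the Iqgap3-2A-tdTomato reporter, in which the Iqgap3 locus also makes the red protein tdTomato, and were either wild type for Runx3 (WT) or carried Runx3 R122C, a point change in the transcription factor RUNX3. The labels do not say whether R122C was on both alleles. Cells positive for tdTomato, taken as high in Iqgap3, form the IQ3pos groups and cells negative for it, low or negative in Iqgap3, form the IQ3neg groups. There were 3 libraries of WT IQ3pos, 3 of WT IQ3neg, 2 of R122C IQ3pos and 2 of R122C IQ3neg, each from a pool of 3 mice, or 4 for the replicate 2 pair of WT.

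In the acid-secreting corpus, histamine comes mainly from enterochromaffin-like (ECL) cells, endocrine cells that answer gastrin and release histamine onto neighbouring parietal cells. HDC, histidine decarboxylase, makes histamine from histidine in a single step. TPH1, tryptophan hydroxylase, begins serotonin synthesis in enterochromaffin (EC) cells, and DDC, aromatic L-amino acid decarboxylase, completes it. SLC18A2 (VMAT2) and SLC18A1 (VMAT1) exchange protons for amines across the vesicle membrane. VMAT2 carries histamine as well as serotonin and is the transporter of ECL cells, while VMAT1 is found in EC cells and carries histamine poorly. Mast cells also express Hdc, Slc18a2 and Tph1, so these genes do not by themselves name an ECL or EC cell.

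Levels are the log2 CPM values as deposited, a gene's reads relative to a library size that the authors set. Added over genes, CPM came to 1036666 in the lowest library and 1053761 in the highest, so that size was not the plain total of these reads. A gene listed at 0 was below 1 CPM and need not lack reads. Library depth was recovered from the spacing of low values: 1 CPM stood for 47.43 to 264.8 reads. The WT replicate 1 pair was the shallowest, with 1 CPM standing for 47.43 and 59.3 reads. Epithelial markers were high in every library, with Epcam between 7.64 and 9.25 and Krt8, a keratin of simple epithelia, between 8.39 and 11.12, both lowest in WT IQ3neg replicate 1.

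The histamine-forming enzyme gene was far higher in the IQ3neg cells. Hdc (ENSMUSG00000027360.5, GRCm38 chromosome 2, 126593667 to 126619299, minus strand) stood at log2 CPM 3.77, 4.23 and 4.23 in the WT IQ3pos libraries and 8.77, 9.88 and 8.67 in WT IQ3neg. In R122C it stood at 4.57 and 3.45 in IQ3pos and at 10.11 and 7.92 in IQ3neg. Every IQ3neg library was above every IQ3pos library in both genotypes, as was so for 8.07% of the 17155 genes tested in WT and 14.6% in R122C, with 13.2% and 21.7% wholly higher in IQ3pos. Behind these levels were 647 to 4982 reads in IQ3pos and 25914 to 190764 reads in IQ3neg.

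Hdc fell 32.7-fold in WT IQ3pos, from 9.11 ± 0.672 (SD, n = 3) in IQ3neg to 4.08 ± 0.267 (log2 difference -5.03 ± 0.569 SE, limma adjusted p = 0.00141). It fell 32.1-fold in R122C, from 9.01 ± 1.55 (SD, n = 2) to 4.01 ± 0.794 (-5.00 ± 0.697, limma adjusted p = 0.0112). Between IQ3pos and IQ3neg libraries that share a genotype and title code, the difference lay between -5.65 and -4.44 in all 5 pairs. The WT call held without any single WT library (limma adjusted p from 2.44e-05 to 0.0192 over all alternatives). The R122C call was lost without IQ3pos replicate 2 (0.118), without IQ3neg replicate 1 (0.179) and when only the R122C groups were fitted (0.149).

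Vesicle storage followed the same direction, mostly through Slc18a2. Slc18a2 (ENSMUSG00000025094.8, chromosome 19, 59260896 to 59296012, plus strand) stood at 5.76, 6.33 and 6.50 in WT IQ3pos and 9.23, 9.74 and 9.16 in WT IQ3neg. In R122C both IQ3pos libraries, at 5.48 and 5.18, lay under the IQ3neg libraries, at 9.91 and 8.64. The fractions did not overlap in either genotype, and the IQ3pos levels were the highest of any member there. Slc18a2 fell 9.09-fold in WT IQ3pos (-3.18 ± 0.396, limma adjusted p = 0.00224) and 15.3-fold in R122C (-3.94 ± 0.485, limma adjusted p = 0.00493). The WT call held without any single WT library, while the R122C call was lost without IQ3pos replicate 2 (0.0691), without IQ3neg replicate 1 (0.127) and with only the R122C groups in the fit (0.0826).

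Slc18a1 (ENSMUSG00000036330.12, chromosome 8, 69037711 to 69089235, minus strand), the EC cell transporter, was near the listed floor. It stood at 2.27 in WT IQ3pos replicate 1 and was listed at 0 in the other 4 IQ3pos libraries. In IQ3neg it stood at 0.28, 3.29 and 2.51 in WT and 2.66 and 1.31 in R122C, between 72 and 1283 reads. The WT fractions overlapped because the replicate 1 pair went the other way from the rest. Slc18a1 did not pass in WT (limma adjusted p = 0.491) or R122C (0.722), and since the differences rest on the floor no fold is given.

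Serotonin synthesis genes were also higher in IQ3neg. Tph1 (ENSMUSG00000040046.14, chromosome 7, 46644641 to 46672537, minus strand) was listed at 0 in 4 of the 5 IQ3pos libraries and stood at 0.74 in WT IQ3pos replicate 3. In IQ3neg it stood at 3.03, 5.51 and 4.28 in WT and 3.14 and 3.77 in R122C, between 486 and 5983 reads. No IQ3pos library reached any IQ3neg library. Tph1 fell in WT IQ3pos (limma adjusted p = 0.0408) and did not pass in R122C (0.310), with no fold given against a listed 0. The WT call was lost when any 1 IQ3pos library was left out (0.0805 to 0.108), or IQ3neg replicate 2 (0.116) or replicate 3 (0.0659). Gast, the gastrin gene of antral G cells, was listed at 0 in WT IQ3neg replicate 1 and stood at 9.60 and 3.61 in WT IQ3neg replicates 2 and 3. It stood at 6.14 and 4.78 in R122C IQ3neg. WT IQ3neg replicate 2 held the highest level of both Gast and Tph1. Its part in the Tph1 result was not tested.

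Ddc (ENSMUSG00000020182.16, chromosome 11, 11814101 to 11898144, minus strand) stood at 4.06, 4.13 and 3.29 in WT IQ3pos and 6.41, 7.21 and 6.59 in WT IQ3neg. In R122C it stood at 4.26 and 4.65 in IQ3pos and at 6.71 and 6.52 in IQ3neg. The fractions did not overlap in either genotype. Ddc fell 7.51-fold in WT IQ3pos, from 6.74 ± 0.418 to 3.83 ± 0.466 (SD, n = 3; log2 difference -2.91 ± 0.435, limma adjusted p = 0.00707). Without WT IQ3neg replicate 2 its limma adjusted p was 0.0501. In R122C the difference was -2.16 ± 0.532 and did not pass (limma adjusted p = 0.167).

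In all, 4 of the 5 members fell in WT IQ3pos and none rose, against 1.42% of the genes tested called lower there, 0.606% called higher and 2.03% called in either direction. In R122C 2 of the 5 fell and none rose, against 0.291% called lower, 0.0291% called higher and 0.321% in either direction. The median difference of the 5 members was -3.18 in WT, the value of Slc18a2, and -3.45 in R122C, the value of Tph1. Over all genes tested it was 0.16 and 0.02. Tph1 did not pass in R122C and was listed at 0 in both R122C IQ3pos libraries, so the R122C median rests on the floor. After centring every library at its own median, WT calls over all genes moved from 104 higher and 244 lower to 510 higher and 388 lower, and the R122C calls from 5 higher and 50 lower to 18 and 69, with the same members called. The fractions did not overlap for 4 members in WT and 5 in R122C, beside the 8.07% and 14.6% of all genes wholly lower in IQ3pos. In bulk RNA fewer cells of a type and less RNA per cell cannot be told apart, and the labels do not say whether IQ3pos and IQ3neg libraries came from the same mice.

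**Figure D1:**
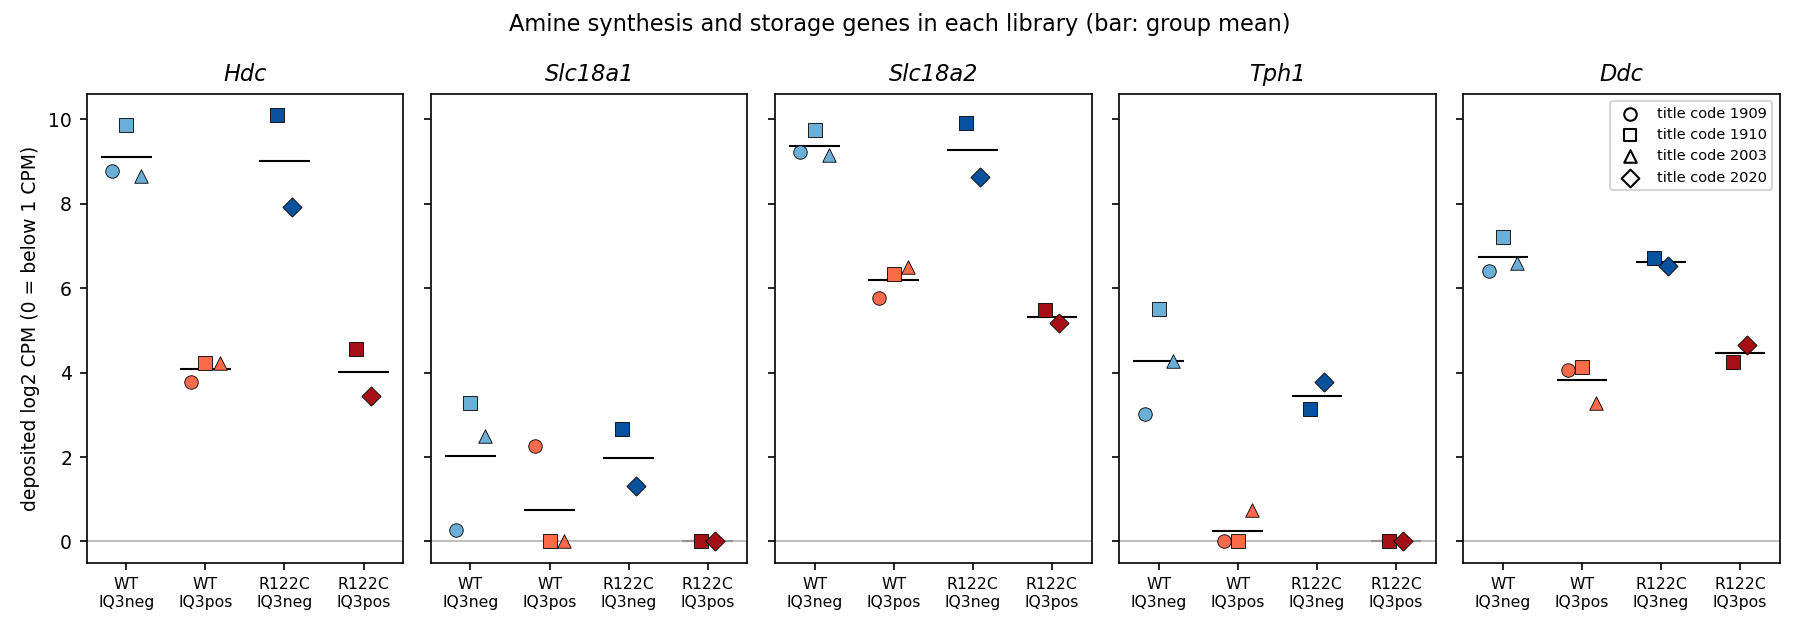
Deposited log2 CPM of each member in the 10 libraries by group, with 1 point per library, marker shape for the title code and a bar at the group mean. Within each genotype the IQ3neg libraries lie above the IQ3pos libraries for Hdc, Slc18a2, Tph1 and Ddc. The share of all genes so separated was 8.07% within WT and 14.6% within R122C. For Slc18a1 the WT IQ3pos replicate 1 library, at 2.27, lies among the IQ3neg libraries.

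Per kilobase of annotated exon, the order of the levels differed between the fractions. In WT IQ3neg, Slc18a2 was at a median of 115 CPM per kb (range 110.0 to 163), Hdc at 68.4 (63.9 to 148), Ddc at 21.7 (19.1 to 33.2), Tph1 at 3.16 (1.33 to 7.40) and Slc18a1 at 1.06 (0.225 to 1.81). The ranges of the neighbours Slc18a2 and Hdc overlapped, as did those of Tph1 and Slc18a1. In WT IQ3pos, Slc18a2 was at 15.4 CPM per kb (10.3 to 17.3), Ddc at 3.75 (2.20 to 3.94) and Hdc at 2.94 (2.14 to 2.94), with the ranges of Ddc and Hdc overlapping. The order in R122C was the same as in WT within each fraction for these 3 genes.

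Levels of Hdc, Slc18a2 and Ddc were also taken relative to Chga, which encodes the granule protein chromogranin A of all these endocrine cells. Chga fell by 5.77 on the log2 scale in WT IQ3pos (limma adjusted p = 3.54e-05) and by 5.36 in R122C (0.000795). It ranked 2 by p among the 17155 genes tested in both comparisons. The median over all genes tested was 0.16 in WT and 0.02 in R122C, so a gene with no change also rises against Chga. Such a rise alone does not set a member apart from other genes. The log2 ratio of Ddc to Chga lay between -4.86 and -4.05 in the IQ3neg libraries and between -2.05 and -0.70 in IQ3pos. Every IQ3pos library was above every IQ3neg library. Between libraries that share a genotype and title code the ratio differed by 2.99 ± 0.297 on average (SD over 5 codes and genotypes).

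The ratio of Slc18a2 to Chga lay between -2.10 and -1.66 in IQ3neg and between -0.58 and 1.21 in IQ3pos, again without overlap, and differed by 2.12 ± 0.935 on average. The ratio of Hdc to Chga differed by 0.58 ± 0.636, between -0.04 and 1.54, and the fractions overlapped. These are descriptions, since the labels do not tie a title code to the same mice. An exact sign-flip permutation over title codes and genotypes could not go below p = 0.0625 and so could not pass 0.05. It gave adjusted p = 0.125 for Hdc and 0.0938 for both Slc18a2 and Ddc. The ratios do not depend on the scaling between libraries. Tph1 and Slc18a1, listed at 0 in some libraries, were left out.

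**Figure D2:**
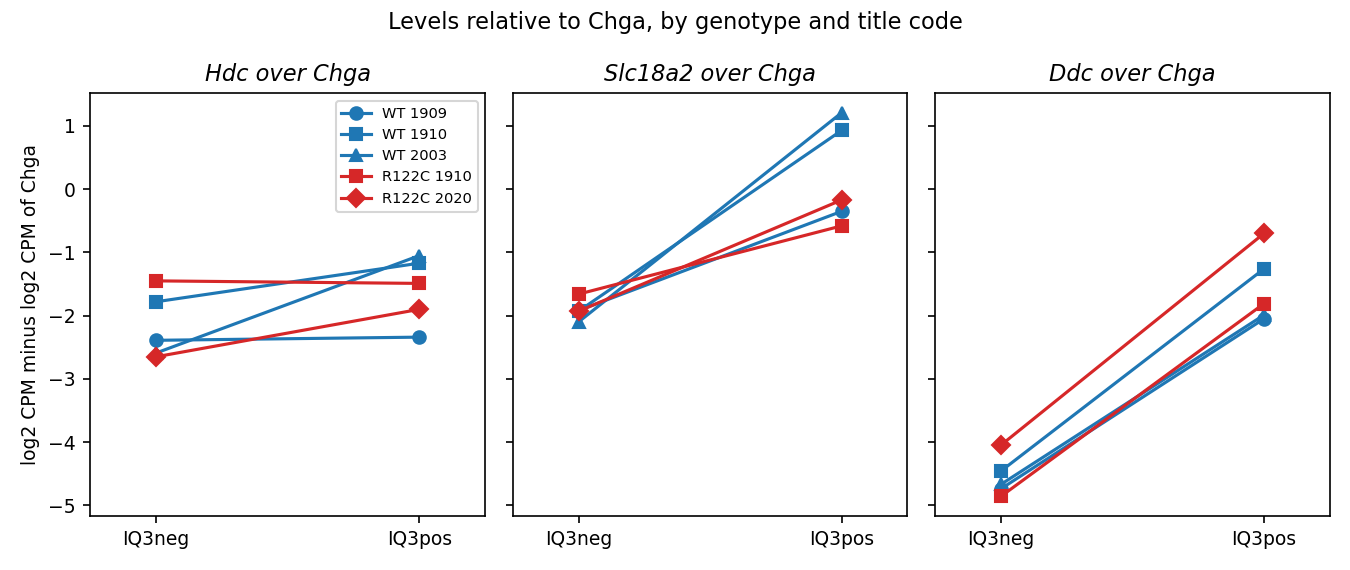
Log2 CPM of Hdc, Slc18a2 and Ddc minus that of Chga in IQ3neg and IQ3pos, with 1 line per genotype and title code. The Ddc lines all rise by between 2.68 and 3.34, and the Slc18a2 lines by between 1.08 and 3.31, while the Hdc lines change by between -0.04 and 1.54. Since Chga fell in IQ3pos, a gene with no change between the fractions would also rise.

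Promoter windows show the sequence around the starts of Hdc and Slc18a2, the pair of members whose levels were most alike, and of Tph1, whose window alone holds the RUNX letters searched. RefSeq windows on GRCm38.p6, 250 bases before to 50 after a start, were given for 4 of the 5 members, in 6 windows. They are read 5′ to 3′ on the gene's strand at chr2:126618629-126618928 (minus) for Hdc, chr19:59260628-59260927 (plus) for Slc18a2 and chr7:46672488-46672787 (minus) for Tph1. Capitals mark matches on either strand to any of the motifs searched. The E-box was spelled CANNTG, where N is any base. The letters of a RUNX site were TGTGGT. For the core of a cAMP response element they were TGACG. The TATA box was spelled TATAAA.
Hdc: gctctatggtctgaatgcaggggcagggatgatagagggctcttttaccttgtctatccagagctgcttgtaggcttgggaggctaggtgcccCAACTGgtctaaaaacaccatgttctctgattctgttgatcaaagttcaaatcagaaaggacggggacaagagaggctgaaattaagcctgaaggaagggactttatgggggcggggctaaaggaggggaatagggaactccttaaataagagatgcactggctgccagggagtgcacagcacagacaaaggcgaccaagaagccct
Slc18a2: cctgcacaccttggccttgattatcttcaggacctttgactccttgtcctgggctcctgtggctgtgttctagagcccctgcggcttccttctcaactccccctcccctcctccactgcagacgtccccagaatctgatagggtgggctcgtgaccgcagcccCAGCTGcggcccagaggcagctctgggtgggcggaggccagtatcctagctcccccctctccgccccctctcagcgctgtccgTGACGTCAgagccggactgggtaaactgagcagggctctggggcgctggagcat
Tph1: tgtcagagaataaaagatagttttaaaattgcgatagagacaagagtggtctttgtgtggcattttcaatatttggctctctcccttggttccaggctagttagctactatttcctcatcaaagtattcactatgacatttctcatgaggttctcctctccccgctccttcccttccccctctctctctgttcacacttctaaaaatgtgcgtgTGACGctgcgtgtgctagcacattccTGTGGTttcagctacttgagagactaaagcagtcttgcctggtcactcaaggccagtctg

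The Hdc window held 1 E-box, at -157 from the RefSeq start, which lies 621 bases inside the longest annotated gene body. The Slc18a2 window held an E-box at -87 and 2 overlapping response element cores, on opposite strands, at -4 and -1. The first Tph1 window held TGTGGT at -10 and a response element core at -36. Its other window held an E-box and 3 such cores. The window at the first Ddc start held 1 TATA box on the opposite strand, and the other Ddc window held none of the letters searched. Of 32851 promoter windows, 72.3% held an E-box, 16.8% the RUNX letters, 20.8% the response element core and 13.6% the TATA box. These are letter matches only, and the counts do not separate the alternative starts of Tph1 and Ddc.

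The Slc18a2 window lies inside Gm29261, an antisense gene on the minus strand (chromosome 19, 59259512 to 59261419) that shares 111 exon bases with Slc18a2, 2.12% of the Slc18a2 exons and 16.4% of its own. Gm29261 stood at 0.02, 0.78 and a listed 0 in WT IQ3pos against 4.31, 5.26 and 4.50 in IQ3neg (limma adjusted p = 0.0249), and at a listed 0 in both R122C IQ3pos libraries against 5.65 and 3.86 in IQ3neg (0.118). The sources used here do not say whether counting used strand, so reads of the shared bases cannot be assigned to either gene. Slc18a1 shares no exon base with Atp6v1b2 or Gm15716, which lie across it on the other strand, nor Ddc with 1700042O10Rik.

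Some genes had patterns very close to the members over the 10 libraries. By Pearson correlation with 13207 other genes above the floor in at least 5 libraries, Gm29261 was nearest to both Hdc (r = 0.991) and Slc18a2 (r = 0.984), and Hdc and Slc18a2 themselves correlated at 0.983. Hdc was followed by Ptf1aos, Sez6l2, Pcsk2os1 and Upb1 (r = 0.987 to 0.989). Slc18a2 was also near Upb1, Cplx2, a regulator of vesicle fusion, and Serping1, the complement C1 inhibitor (r = 0.978 to 0.980). Tph1 was nearest to Chrna3, a nicotinic receptor subunit, Cerox1, Gm20621, Gm30505 and Enho (r = 0.977 to 0.992). Ddc was nearest to Nucb2, the precursor of nesfatin-1 (r = 0.990), with Gnaz, Insrr, Scgn and Gucy2c at 0.972 to 0.981. Slc18a1 was nearest to Nek10, Lcmt1, Fuz, Slc39a6 and Plk2 (r = 0.957 to 0.972), and its correlation with the other members was 0.649 to 0.699. These values describe 10 libraries that share the sort, and correlations within a fraction were not computed. For each of the genes listed as nearest to Slc18a1, the fractions overlapped over the 10 libraries.

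Endocrine granule and identity genes, and the hormone genes of other endocrine cells, were mostly lower in the same libraries. Of 13 granule and identity genes tested, 8 fell and none rose in WT IQ3pos, with a median of -4.72, and 6 fell in R122C, with a median of -4.88. Chgb (chromogranin B), Scg3, Scg5 and the prohormone convertases Pcsk1 and Pcsk2 fell in both genotypes, with Scg5 lower by a log2 difference of -4.72 in WT and -4.88 in R122C. Of 8 peptide hormones, Sst, Ghrl, Gcg and Pyy fell in both. Leaving out 1 library gave 6 to 8 granule calls in WT and 1 to 3 in R122C, where 1 to 3 hormones were called. The summed level of the 5 members was 89.2 to 121 CPM in WT IQ3pos and 72.2 to 87.7 in R122C IQ3pos, against 1100 to 2000 and 748 to 2180 in IQ3neg.

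Receptors through which ECL cells are driven or held back did not pass. Cckbr, the gastrin receptor, stood at 2.08 and 2.54 and was listed at 0 in WT IQ3pos, against 4.98, 7.25 and 5.16 in IQ3neg (limma adjusted p = 0.0658). In R122C IQ3pos it was listed at 0 and stood at 3.54, against 7.32 and 5.32 in IQ3neg (limma adjusted p = 0.256). The somatostatin receptor Sstr2 (limma adjusted p = 0.525 and 0.651) and the galanin receptor Galr1 (0.234 and 0.644) did not pass, and 4 other genes of that list, among them Adcyap1r1, the PACAP receptor, were above the floor in too few libraries to test. EC cell regulators gave little signal. Lmx1a reached 0.13 in WT IQ3pos replicate 3 and 0.27 in WT IQ3neg replicate 3 and was listed at 0 elsewhere, and Fev reached 1.82, 0.11 and 0.57 in 3 IQ3neg libraries.

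Genes of amine breakdown, uptake and cofactor supply did not pass in either genotype. None of the 6 tested breakdown and uptake genes was called (median -1.49 in WT and -1.65 in R122C). Maob, a monoamine oxidase, stood at 5.78 in WT IQ3pos replicate 2 and was listed at 0 in the other WT IQ3pos libraries, against 5.21, 6.50 and 4.78 in IQ3neg (limma adjusted p = 0.208). Maoa (limma adjusted p = 0.466) and Hnmt, which methylates histamine (0.523), did not pass in WT either. Aoc1, diamine oxidase, was above the floor in 1 library, WT IQ3pos replicate 3, at 1.14, and Slc6a4, the serotonin transporter, in 1, WT IQ3neg replicate 2, at 1.51.

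None of the 9 genes that supply tetrahydrobiopterin, needed by TPH1, or pyridoxal phosphate, needed by HDC and DDC, passed (median -0.24 and 0.00). Qdpr, which recycles the pterin, differed by -1.47 ± 0.484 in WT (limma adjusted p = 0.143). None of 15 subunits and accessory proteins of the vesicular proton pump passed (median -0.26 in WT and -0.34 in R122C), so the pump that powers amine loading was not called beside Slc18a2. Among 18 histamine and serotonin receptors 14 were listed at 0 in every library. Hrh2, the histamine receptor of parietal cells, stood at 4.00 and 3.53 in WT IQ3pos replicates 1 and 3, at 0.77 in WT IQ3neg replicate 3 and at a listed 0 in the other WT libraries (limma adjusted p = 0.283). In R122C it stood at 3.37 and 3.24 in IQ3pos and at 2.82 and 2.29 in IQ3neg (limma adjusted p = 0.950).

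Transcripts of other cells that can hold amines were present too. Of 13 mast cell and basophil markers, 9 were tested, all 9 were lower on average in IQ3pos in both genotypes, and 1 passed in WT. Mcpt1, Tpsab1, Ms4a2 and Fcer1a were listed at 0 in all IQ3pos libraries and entered the test only through IQ3neg. Their direction was thus fixed by the filter. Among the untested markers, Mcpt4 was above the floor only in WT IQ3pos replicate 2, at 2.24, and Mcpt8 only in WT IQ3neg replicate 1, at 1.37. The gene that passed was Kit, the stem cell factor receptor, at a listed 0 in WT IQ3pos against 3.16, 5.46 and 4.70 in IQ3neg (limma adjusted p = 0.0430). Leaving out 1 WT library gave 0 or 1 call, which was Kit only without IQ3neg replicate 1. It was Cpa3 without IQ3pos replicate 1 and the marker Tpsb2 without IQ3neg replicate 3. Centring the libraries gave 2 calls, Kit and Tpsb2, as did keeping only genes above the floor in at least 5 libraries. There were 0 calls without the filter on low values, with only the WT groups fitted and without the WT replicate 1 pair. Cpa3, mast cell carboxypeptidase, stood at 5.14 in WT IQ3pos replicate 1, a listed 0 in the other 4 IQ3pos libraries, and 6.14, 5.00, 3.90, 4.72 and 2.87 in the IQ3neg libraries. The summed level of the markers was 0 to 51.0 CPM in WT IQ3pos, 2.50 to 6.66 in R122C IQ3pos, 61.6 to 216 in WT IQ3neg and 31.5 to 108 in R122C IQ3neg. It was highest in WT IQ3neg replicate 1. Of the 13 markers, 12 were above the floor in at least 1 library. Prss34 was listed at 0 in all libraries, as was Gata2 in 9 of 10. Their part in the Hdc, Slc18a2 and Tph1 results was not tested.

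Of 10 tuft cell markers 1, the channel gene Trpm5, was lower in WT (limma adjusted p = 0.0389) and none passed in R122C. Their summed level was 79.8 to 331 CPM in WT IQ3pos and 286 to 1720 in WT IQ3neg. In the WT replicate 1 pair it was higher in IQ3pos, at 331 CPM against 286. In R122C it was 169 to 195 CPM in IQ3pos and 896 to 1580 in IQ3neg. Leaving out 1 WT library gave 0 to 2 calls in WT, and centring the libraries gave 6. There were 0 calls in WT without the filter on low values, without the variance trend and with only the WT groups fitted. A fit with the title code and genotype as a block called Alox5 in WT and not Trpm5. Without the WT replicate 1 pair there were 5 calls in WT and 2 in R122C (Dclk1 and Alox5ap), and without the variance trend 1 in R122C (Ptgs1). The part of these cells in the members' results was not tested. Platelet markers summed to at most 12.8 CPM in any library, and 5 of 6 neutrophil markers were listed at 0 throughout.

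**Figure D3:**
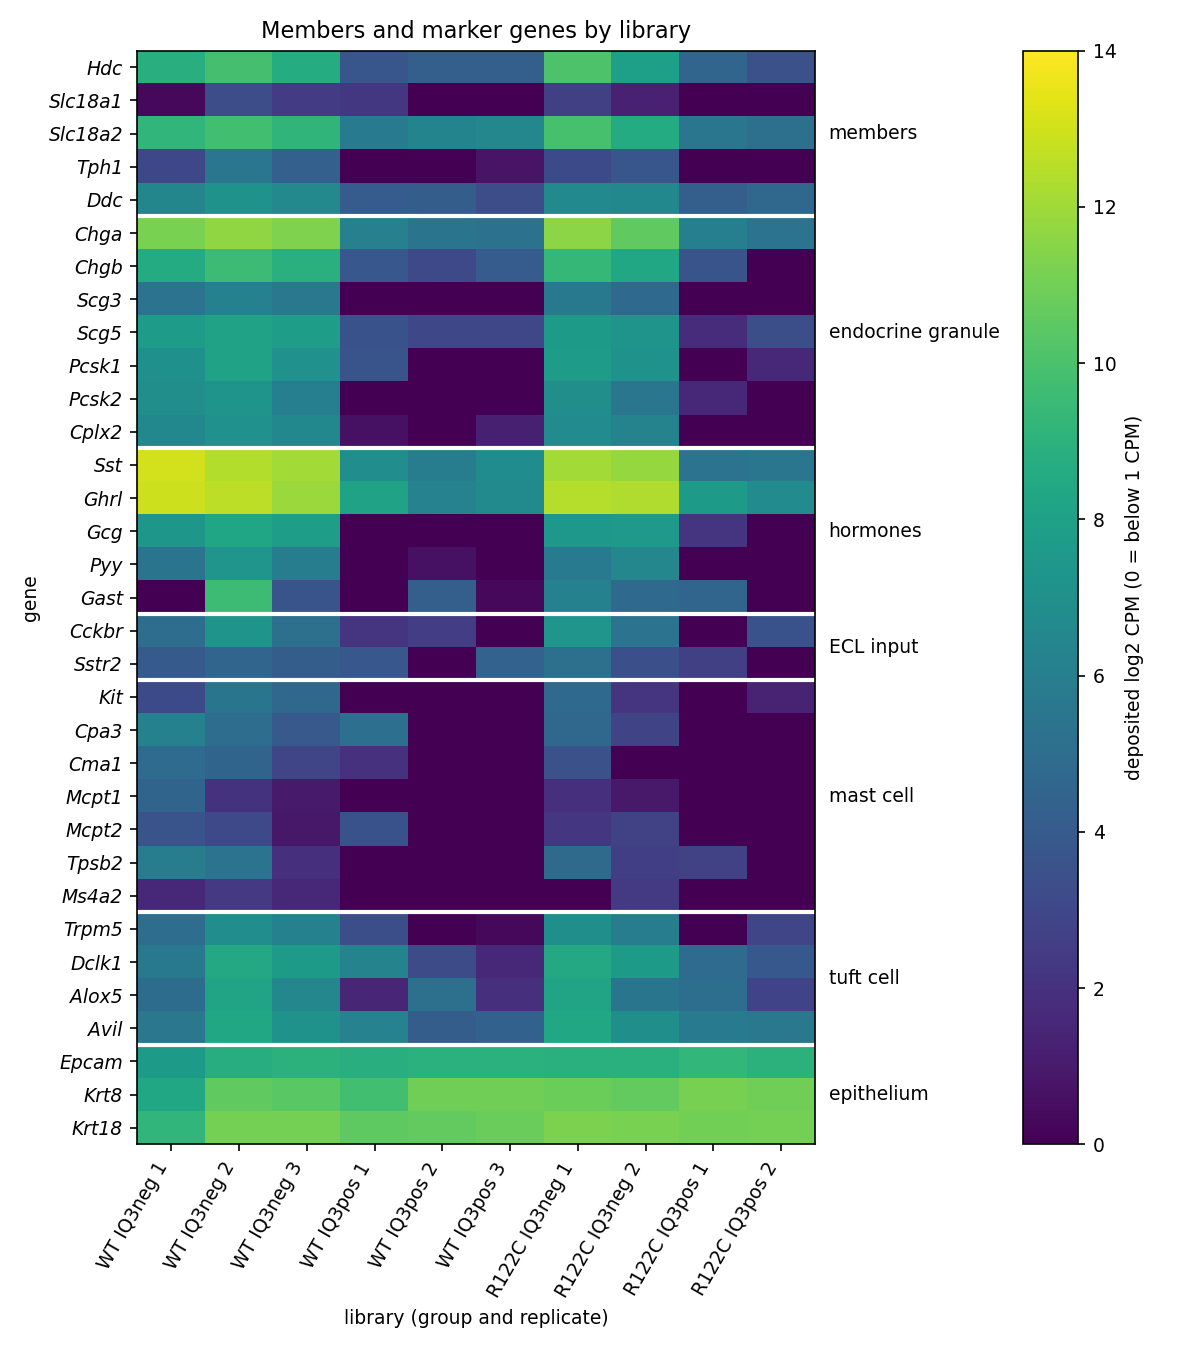
Deposited log2 CPM of the members and of chosen endocrine, mast cell, tuft cell and epithelial genes, with 1 column per library and lighter colours for higher levels. Most endocrine, mast and tuft genes are darker in the IQ3pos columns, and the epithelial genes are light in all columns. Exceptions include Cpa3 at 5.14 in WT IQ3pos replicate 1 and Gast at 0 in WT IQ3neg replicate 1. In the WT replicate 1 pair, Dclk1 (6.26 against 5.67) and Avil (6.23 against 5.53) are also higher in IQ3pos.

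R122C was compared with WT within each fraction to ask whether the RUNX3 change altered these genes. No member passed. In IQ3pos, Slc18a2 was lower in both R122C libraries (5.48 and 5.18) than in the 3 WT libraries (5.76 to 6.50), a difference of -0.86 ± 0.443 with a 95% interval from -1.83 to 0.10 (limma adjusted p = 0.911). Ddc was higher in both R122C libraries (4.26 and 4.65) than in WT (3.29 to 4.13), by 0.62 ± 0.486 (-0.44 to 1.68, 0.963). Of all genes tested, 7.20% lay wholly lower and 8.28% wholly higher in R122C IQ3pos. Hdc differed by -0.07 ± 0.636 (-1.45 to 1.32, limma adjusted p = 1).

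In IQ3neg the genotypes overlapped for every member. Hdc differed by -0.10 ± 0.636 (interval -1.48 to 1.29), Slc18a2 by -0.11 ± 0.443 (-1.07 to 0.86) and Ddc by -0.13 ± 0.486 (-1.19 to 0.93), each with limma adjusted p = 1. The R122C IQ3neg libraries lay far apart in Hdc, at 10.11 and 7.92, on either side of all 3 WT libraries. Tph1 stood at 3.14 and 3.77 in R122C against 3.03 to 5.51 in WT, and Slc18a1 at 2.66 and 1.31 against 0.28 to 3.29.

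Within the single title code that holds both genotypes (WT replicate 2 and R122C replicate 1), with 1 library per group, R122C minus WT in IQ3neg was 0.22 for Hdc, -0.63 for Slc18a1, 0.17 for Slc18a2, -2.38 for Tph1 and -0.51 for Ddc, with no test. For Tph1 this compares with -0.82 over all libraries. In IQ3pos it was 0.34 for Hdc, -0.85 for Slc18a2 and 0.12 for Ddc, with Slc18a1 and Tph1 listed at 0 in both libraries. The other codes each hold a single genotype, so code and genotype cannot be told apart in them.

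The difference between fractions was not shown to depend on genotype. The interaction was 0.03 ± 0.899 for Hdc (interval -1.93 to 1.99), -0.76 ± 0.626 for Slc18a2 (-2.12 to 0.61) and 0.75 ± 0.687 for Ddc (-0.75 to 2.25), each with limma adjusted p = 1. Over all genes limma called none (0%) between genotypes in IQ3pos, in IQ3neg or for the interaction, with 930, 629 and 444 genes at an unadjusted p under 0.05, and no member among them. The calls made in WT alone, for Tph1 and Ddc, are not shown to differ from R122C.

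**Figure D4:**
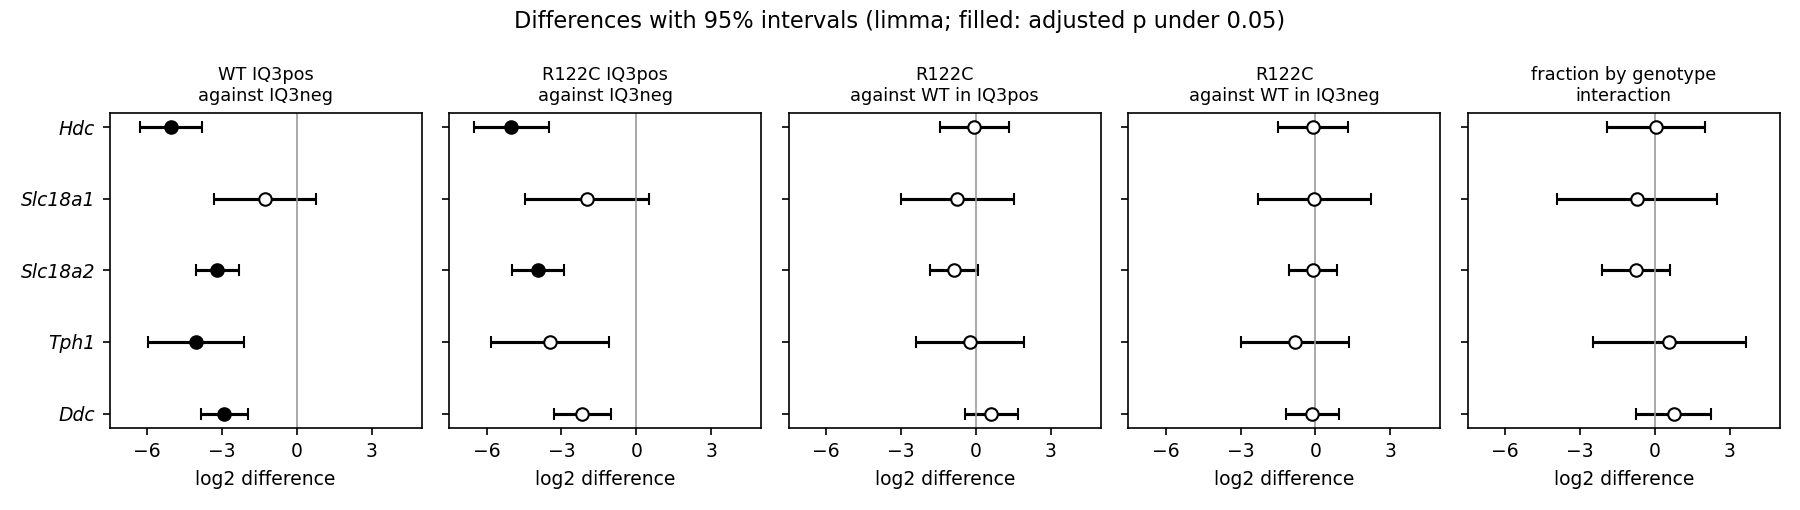
Log2 differences of the 5 members in the 5 comparisons, with 95% intervals from limma and filled points for adjusted p under 0.05. Hdc and Slc18a2 are filled in both comparisons of the fractions, Tph1 and Ddc in WT, and no interval in the comparisons of the genotypes or in the interaction lies clear of 0.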

How the data were processed

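RNA of 10 libraries of sorted corpus epithelial cells was measured, each from a pool of 3 or 4 mice. Per the labels' protocols, RNA was amplified by PCR before library preparation. The submitters' processing notes name the aligner STAR 2.7.1a, the counter featureCounts of Subread 2.0.0, edgeR and the build GRCm38 (mm10). Strandedness and scaling are, in the sources used here, not given. The authors deposited log2 CPM values for 55276 rows, with every gene below 1 CPM listed at 0.

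Groups came from the sample titles. limma 3.58.1 in R 4.3.3 fitted 4 group means and a variance trend on mean level (residual df 6, prior df 6.01) to the deposited log2 values of the 17155 genes above the floor in at least 2 of the 10 libraries, and p-values were two-sided and Benjamini-Hochberg adjusted over all of them at 0.05. Such p-values measure the spread between pools. For single genes, exact permutation of 3 against 3 libraries cannot go below 0.1, so none was run. The script was tested on simulated data. Coordinates and exon lengths are from GENCODE M21 (GRCm38). The members, lists and naming rule (all 5 members, called list genes, the 5 most alike genes per member) were chosen with earlier results of these data known. Replicate numbers were not used as pairs in the fit. The lowest member value above the floor rests on 72 reads. Reads were amplified and no molecular identifiers are stated, so reads do not count molecules.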

Additional observations from a re-analysis of the deposited data

How the results depend on the processing

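In WT, Hdc and Slc18a2 were called under all 15 alternatives tried, and Ddc and Tph1 under those not named here or in the results. Tph1 was lost without the filter on low values (limma adjusted p = 0.0709), with only the WT groups fitted (0.0981) and without the WT replicate 1 pair (0.0525). Without 1 library, the WT comparison called 2 to 4 members and 79 to 455 genes (348 with all), and the R122C comparison 0 to 2 members and 2 to 30 genes (55 with all). The WT count over all genes was 600 with genes above the floor in at least 5 libraries (256 higher, 344 lower), 898 after centring, 191 without a filter and 143 with only the groups compared. The R122C count was 87 after centring, 146 without the variance trend, 105 without the WT replicate 1 pair and 14, with 0 members, with only the groups compared. Between genotypes in IQ3pos, where 0 genes were called, the counts were 1 (5 libraries), 2 (centred), 7 (no trend), 7 (groups compared) and 2 (no WT replicate 1 pair), and 0 to 2 without 1 library. In IQ3neg 4 genes were called without a filter, and for the interaction 2 without the WT replicate 1 pair.

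A replicate block, with the title code and genotype as the pool, was an alternative. Deviations from the group means correlated at 0.0808 to 0.162 within the 5 pairs, not all over 0.1, so the numbers were not taken to pair the libraries, although both libraries of each pair correlated best with each other. The block gave 364 calls in WT (189 higher, 175 lower) and 31 in R122C. It ended the WT call of Tph1 (limma adjusted p = 0.0579), gave 0 mast cell calls in WT and 3 granule calls in R122C, and changed no other member call.

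Uncalled genotype differences changed sign. Hdc in IQ3pos was 0.038 after centring and -0.63 to 0.49 without 1 library. Without 1 library, the IQ3neg differences ranged from -1.19 to 0.998 for Hdc, -0.92 to 0.63 for Slc18a1, -0.74 to 0.53 for Slc18a2 and -0.29 to 0.11 for Ddc, and the interaction from -1.07 to 1.12 for Hdc, -1.39 to 0.17 for Slc18a1 and -0.040 to 1.20 for Tph1. The Slc18a1 interaction was 0.92 without the WT replicate 1 pair. Centring shifted the median difference of all genes from 0.017 to 0.185 for the R122C fractions, from 0 to 0.106 between genotypes in IQ3pos and from -0.13 to 0.015 for the interaction. The changes relative to Chga, recomputed after the data were seen, were 0.64, 2.11 and 3.04 (Hdc, Slc18a2, Ddc) on log2(CPM + 1) and 0.72, 2.25 and 3.07 without the WT replicate 1 pair. The causes were not tested, and the listed floor of 1 CPM limits Slc18a1 and Tph1.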

Other observations

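WT IQ3pos replicate 1 was the one library in which Slc18a1 was above the floor among IQ3pos cells, at log2 CPM 2.27. Its neighbour on the other strand, Atp6v1b2, stood at 2.08 there and between 6.32 and 8.29 in the other 9 libraries. The genes overlap by their bodies and share no exon base. Th, tyrosine hydroxylase, which begins catecholamine synthesis, was listed at 0 in all 5 IQ3pos libraries and stood at 3.51, 2.74 and 1.67 in WT IQ3neg and at 3.02 and a listed 0 in R122C IQ3neg (limma adjusted p = 0.118 in WT). Dbh, which acts after DDC on that path, stood at 0.02 in WT IQ3neg replicate 3 and was listed at 0 elsewhere.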
